A study of Mus musculus with 6 samples.

Results

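Collagen, laminin and partner matrix genes were compared between Fkbp8 mutant and wildtype mouse embryos. Members were chosen by gene symbol alone: every array probe named as a collagen chain (Col, a number, a and a number), a laminin chain (Lama, Lamb or Lamc with a number), fibronectin (Fn1), a nidogen (Nid1, Nid2) or perlecan (Hspg2). They came to 56 of the 18544 genes named on the array, or 71 of 34967 gene probes, and 2 of the 71 were named only by the array's own description. The RNA came from posterior tissue just behind the forelimb bud at embryonic day 9.5, from offspring of heterozygous Fkbp8 carriers, with 3 mutant samples (a, b, c) and 3 wildtype samples (d, e, f), each on its own single-colour CodeLink Mouse Whole Genome array. The study's title names cell death and dorsoventral patterning of the posterior neural tube. Neither the mutation nor the strain is described in the labels, the source label of mutant a speaks of embryos in the plural, so that pooling is not settled there, and nothing says which of the samples came from separate litters. The p-values therefore measure the spread between these 6 samples. Tissue samples hold many cell types, so fewer cells of a type and less RNA per cell cannot be told apart.

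Fibrillar collagens assemble into the fibres of connective tissue, whereas basement membranes are thin sheets built from a laminin network and a type IV collagen network joined by nidogens and perlecan. A laminin is a trimer of 1 alpha, 1 beta and 1 gamma chain. In the embryo such sheets surround the neural tube, the notochord, the somites and the blood vessels, and the notochord sheath and the later cartilage hold type II, IX and XI collagens. The FACIT collagens sit on the surface of fibrils.

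Between 57.6% and 61.8% of the gene probes were above background on an array, lowest on mutant c, and median background-subtracted intensities ran from 52.1 to 65.1. The Fkbp8 probe, whose place relative to the mutation the labels do not give, read a log2 intensity of 6.23 ± 0.10 (SD, n = 3) in mutants, not above background on any array, against 10.66 ± 0.09 (SD, n = 3) in wildtypes. Xist passed the background mark on the 3 wildtype arrays alone and the Y-linked Eif2s3y, Ddx3y and Uty on the 3 mutant arrays alone, so that sex-linked expression and genotype cannot be told apart. Of the members, Col4a5 and Col4a6 lie on the X chromosome. In the comparison over all 21688 probes tested with limma, 26 passed an adjusted p of 0.05, among them Pax6, a neural tube patterning factor (log2 fold change -1.15, SE 0.09, adjusted p = 0.00287), and Foxa2, a notochord and floor plate factor (1.08, SE 0.14, adjusted p = 0.0403).

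All values below are log2 intensities after background correction, and every difference is mutant minus wildtype on that log2 scale. An offset of 50 was added to each intensity, so differences of dim probes are smaller than the true ones. Levels of different probes are not set against each other, since probes differ in how strongly they hybridise.

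No member passed the test. Of the 71 probes, 44 for 40 genes were bright enough to be tested, 0 of the 44 passed an adjusted p of 0.05 where 0.120% of all tested probes did (0.065% with a higher and 0.055% with a lower mutant level), and the smallest adjusted p was 0.337. An unadjusted p below 0.05 was reached by 5 of 44 (11.4%), beside 12.2% of all tested probes. Of these 5, the mutants were higher in 4, beside 6.43% of all probes, and lower in 1, beside 5.81%. The groups did not overlap for 10 of 44 member probes (22.7%), beside 19.7% of all, with the mutants above in 6 (11.2% of all) and below in 4 (8.56% of all). The difference was positive for 26 of 44 (59.1%), beside 52.4% of all. These shares were near the background.

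Among the 43 tested probes named through the platform annotation, differences ran from -0.22 for Lamc1 to 0.32 for Col4a1. The median over the 44 was 0.08, against 0.01 over all tested probes. Their median absolute difference was 0.13, and 0.09 over all tested probes. The median standard error of a member was 0.10. The 95% interval of the difference lay within 0.5 log2 units of 0 for 38 of the 44 probes. It lay within 1 log2 unit for 44 of 44, so on this offset scale no interval reached a 2-fold change. Since the offset shrinks differences of dim probes, a 2-fold change is not excluded for dim members. Of the 44, 7 were not above background on every array. Over the alternative settings Lamb2 reached -0.47 (-0.17 here), Lamb3 -0.51 (-0.16 here) and Col6a1 0.44 (0.14 here). The interval that reached farthest from 0 was that of Col2a1, up to 0.89.

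**Figure D1:**
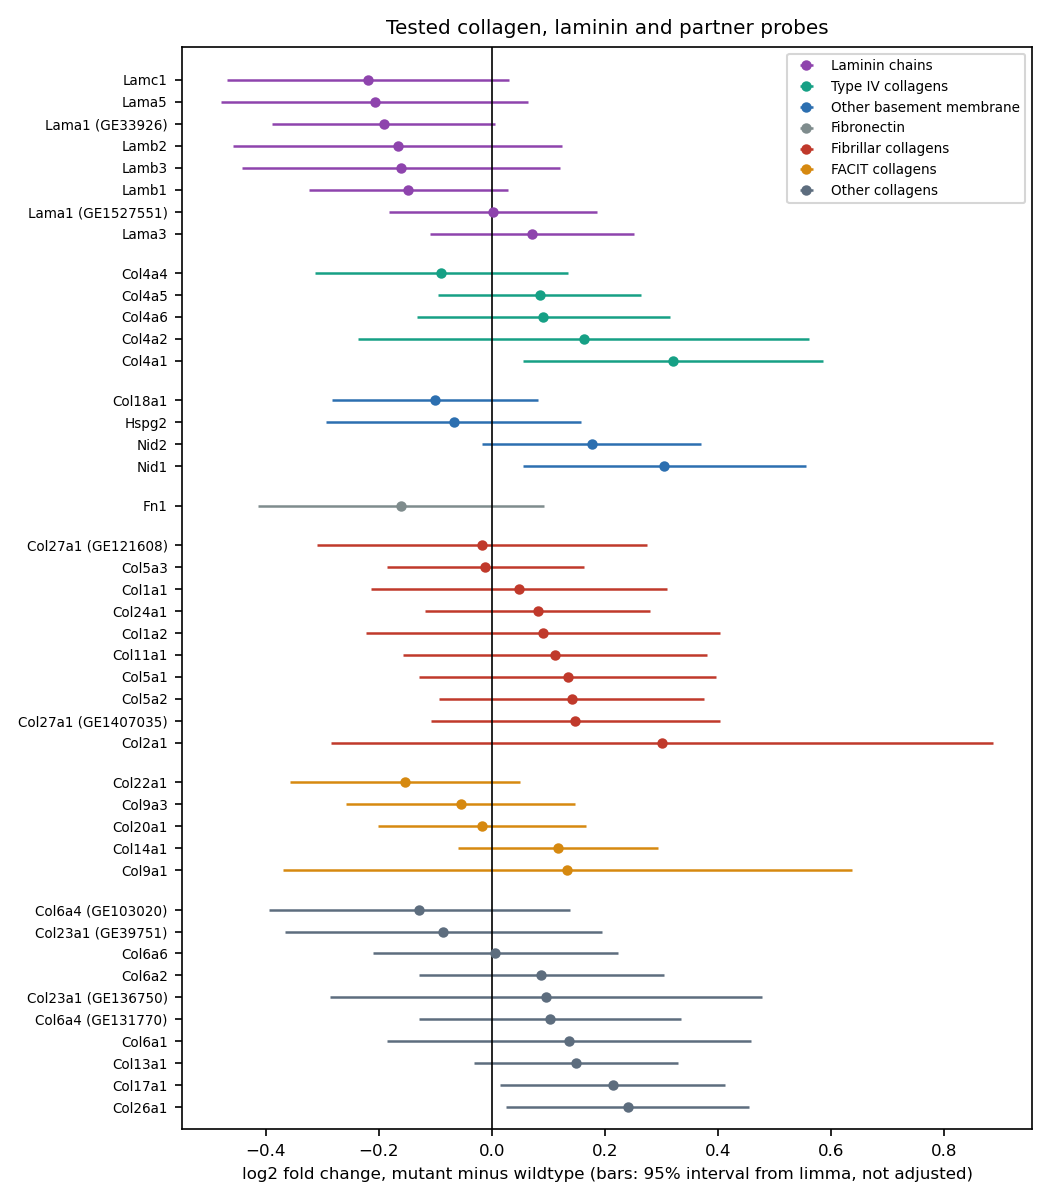
Log2 fold change (mutant minus wildtype, x axis) of the 43 tested member probes named through the platform annotation (y axis), coloured by class, with bars for the 95% interval from limma, not adjusted for the number of probes. Points run from -0.22 for Lamc1 to 0.32 for Col4a1; all but 2 of the laminin points lie left of 0, and the bar of Col2a1 is the longest.

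Among laminin chains, 11 genes were on the array and 8 were tested with 9 probes. By gene, 7 had a negative difference and 1 a positive one, with a median of -0.18, and none passed the test. Over arrays, the median deviation of the laminin probes from their own means was 0.07, 0.06 and 0.05 in wildtype d, e and f. It was -0.17, 0.05 and -0.04 in mutants a, b and c, so mutant b sat beside the wildtypes. Without mutant b the laminin median was -0.24. The summed intensity of 6 neural tube marker genes lay lower in every mutant (2939, 2525 and 2839 in a, b and c) than in any wildtype (3163 to 3326). The 7 probes of those markers had 3 positive and 4 negative differences and a median of -0.05. Nes lay higher in every mutant than in any wildtype (0.16, SE 0.07). Pax6 (-1.15, SE 0.09) and Sox2 (-0.50, SE 0.19, adjusted p = 0.356 by limma) lay lower in every mutant. The part of neural tube cells in the laminin values was not tested.

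Lamc1, the gamma chain of most embryonic laminins, measured 8.24, 8.50 and 8.08 in mutants and 8.51, 8.53 and 8.43 in wildtypes. Mutant b lay among the wildtypes, and the difference was -0.22 (SE 0.11, adjusted p = 0.462 by limma).

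The alpha chains differed among themselves. Lama1, the alpha chain of the early embryonic laminin, has 2 tested probes. Its brighter probe (GE33926) measured 8.70, 8.75 and 8.90 in mutants and 9.08, 8.92 and 8.92 in wildtypes. All mutants lay below all wildtypes, mutant c by little, with a difference of -0.19 (SE 0.09, adjusted p = 0.418 by limma). Its dimmer probe (GE1527551) measured 7.48, 7.59 and 7.48 in mutants and 7.51, 7.61 and 7.42 in wildtypes. That probe gave 0.00 (SE 0.08, 95% interval -0.18 to 0.19), so the probes of Lama1 disagreed. Lama5, the alpha chain that is broadly used in later basement membranes, measured 9.01, 9.10 and 9.10 in mutants and 9.55, 9.11 and 9.16 in wildtypes. The mutants lay below the wildtypes, but only wildtype d stood clear of them, and the difference was -0.21 (SE 0.12, adjusted p = 0.512 by limma).

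Lama3, an alpha chain of epithelial laminins, was the 1 laminin gene with a positive difference. Its tested probe (GE33164) measured 9.36, 9.52 and 9.42 in mutants and 9.36, 9.30 and 9.43 in wildtypes, a difference of 0.07 (SE 0.08). Its second probe (GE1509125), above background on 1 array of each group and so not tested, measured 6.66, 6.31 and 6.60 in mutants and 6.49, 6.69 and 6.49 in wildtypes. Both sets of values overlapped between the groups.

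Of the beta chains, Lamb1, the beta chain of most embryonic laminins, measured 7.38, 7.51 and 7.45 in mutants and 7.51, 7.64 and 7.63 in wildtypes. Mutant b and wildtype d were alike to 2 decimals, the groups just failed to overlap, and the difference was -0.15 (SE 0.08, adjusted p = 0.478 by limma). Lamb2 and Lamb3, the beta chains of synaptic and vascular and of epithelial laminins, each passed the background mark on 1 mutant array and on all 3 wildtype arrays. Their differences were -0.17 (SE 0.13) and -0.16 (SE 0.12), and their groups overlapped. Lama2, Lama4 and Lamc3, the alpha chains of muscle and vessel laminins and a gamma chain of more restricted use, were not tested, because no more than 1 array was above background for each.

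Type IV collagens, whose trimers form the second network of the basement membrane, had 6 genes on the array and 5 tested, 4 with a positive and 1 with a negative difference, and a median of 0.09. Col4a1, a chain of the ubiquitous type IV trimer, had the smallest p of any member. It measured 9.62, 9.98 and 9.84 in mutants a, b and c and 9.61, 9.56 and 9.31 in wildtypes d, e and f. Every mutant lay above every wildtype, mutant a and wildtype d by only a hair. The difference was 0.32 (SE 0.12, 95% interval 0.06 to 0.59), a 1.25-fold ratio, with adjusted p = 0.337 by limma. Its partner chain Col4a2 measured 8.86, 9.61 and 9.03 in mutants and 9.07, 9.07 and 8.88 in wildtypes. Mutant b stood alone above the rest. The Col4a2 difference was 0.16 (SE 0.17, adjusted p = 0.732 by limma), and -0.06 without mutant b.

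Col4a1 and Col4a2 start on opposite strands of chromosome 8, and their promoter windows (300 bases, ending 50 bases after each start, from RefSeq for GRCm38.p6) share 78 bases. They are shown because these are the partner chains whose array values are set side by side above, at chr8:11312777-11313076 (minus strand) for Col4a1 and chr8:11312555-11312854 (plus strand) for Col4a2. Capitals mark GC boxes (GGGCGG or its complement CCGCCC) and CCAAT boxes (CCAAT or ATTGG), read 5′ to 3′ on the gene's strand.
Col4a1: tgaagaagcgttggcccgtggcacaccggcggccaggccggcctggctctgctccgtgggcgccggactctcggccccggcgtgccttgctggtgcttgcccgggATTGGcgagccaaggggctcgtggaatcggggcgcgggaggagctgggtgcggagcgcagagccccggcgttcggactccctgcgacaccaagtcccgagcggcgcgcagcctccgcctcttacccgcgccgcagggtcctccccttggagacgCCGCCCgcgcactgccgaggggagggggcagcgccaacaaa
Col4a2: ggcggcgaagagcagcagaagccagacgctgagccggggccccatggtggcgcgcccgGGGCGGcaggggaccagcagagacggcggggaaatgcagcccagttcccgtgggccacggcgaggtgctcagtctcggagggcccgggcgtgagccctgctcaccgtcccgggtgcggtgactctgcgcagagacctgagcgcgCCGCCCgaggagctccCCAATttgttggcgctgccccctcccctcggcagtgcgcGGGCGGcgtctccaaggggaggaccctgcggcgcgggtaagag
The Col4a1 window held 1 GC box and 1 CCAAT box and the Col4a2 window 3 and 1. The GC box of Col4a1 lies in the shared bases and is the last GC box of Col4a2 read on the other strand, so that site is counted for both genes. At least 1 GC box was found in 27 of 43 promoter windows (62.8%) of the 39 members that had such a window, beside 35.7% of all 32851 windows of the same length. CCAAT boxes were in 34.9% of member windows beside 37.4% of all, and the letters TATAAA or TTTATA in 9.30% beside 13.6%. A match is a description of the letters and not of a binding site.

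The other type IV chains belong to more restricted trimers, those of kidney and smooth muscle among them. Col4a4 had a tested probe (GE33036) at 7.78, 7.55 and 7.58 in mutants and 7.63, 7.88 and 7.68 in wildtypes, a difference of -0.09 (SE 0.10). Its second probe (GE116503) was above background on 1 array of each group and measured 6.37, 6.40 and 6.66 in mutants and 6.23, 6.40 and 6.66 in wildtypes. Neither probe separated the groups. The X-linked Col4a5 and Col4a6 had differences of 0.08 (SE 0.08) and 0.09 (SE 0.10), with overlapping groups and with the Col4a6 spot of mutant b left out as marked by the scanner. Col4a3 was above background on 0 arrays.

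Both nidogens, the linkers between the laminin and type IV collagen networks, had mutant values above the wildtype values. Nid1 measured 7.57 and 7.74 in mutants a and b and 7.27, 7.29 and 7.50 in wildtypes, and the marked spot of mutant c was left out. The groups did not overlap, and the fit with 2 mutant values gave 0.30 (SE 0.11, 95% interval 0.05 to 0.56, adjusted p = 0.337 by limma). Nid2 measured 9.61, 9.75 and 9.54 in mutants and 9.37, 9.48 and 9.52 in wildtypes. Mutant c and wildtype f were nearly level, and the difference was 0.18 (SE 0.09, adjusted p = 0.445 by limma).

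Among the proteoglycan-type members of basement membranes, perlecan (Hspg2) measured 7.17, 7.18 and 7.21 in mutants and 7.44, 7.26 and 7.07 in wildtypes with its tested probe (GE34598). The wildtypes lay on both sides of the mutants, with a difference of -0.07 (SE 0.10). The second perlecan probe (GE1453908), above background on 1 wildtype array, measured 6.41, 6.44 and 6.54 in mutants and 6.38, 6.53 and 6.46 in wildtypes. Col18a1, the precursor of endostatin, had a difference of -0.10 (SE 0.08), and its relative Col15a1 was above background on 0 arrays. Over the 17 tested basement membrane genes, 7 had a positive and 10 a negative difference, with a median of -0.09. That median joins laminin chains at a median of -0.18 with type IV collagens at 0.09 and nidogens at 0.24, and the difference between these classes was not tested.

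**Figure D2:**
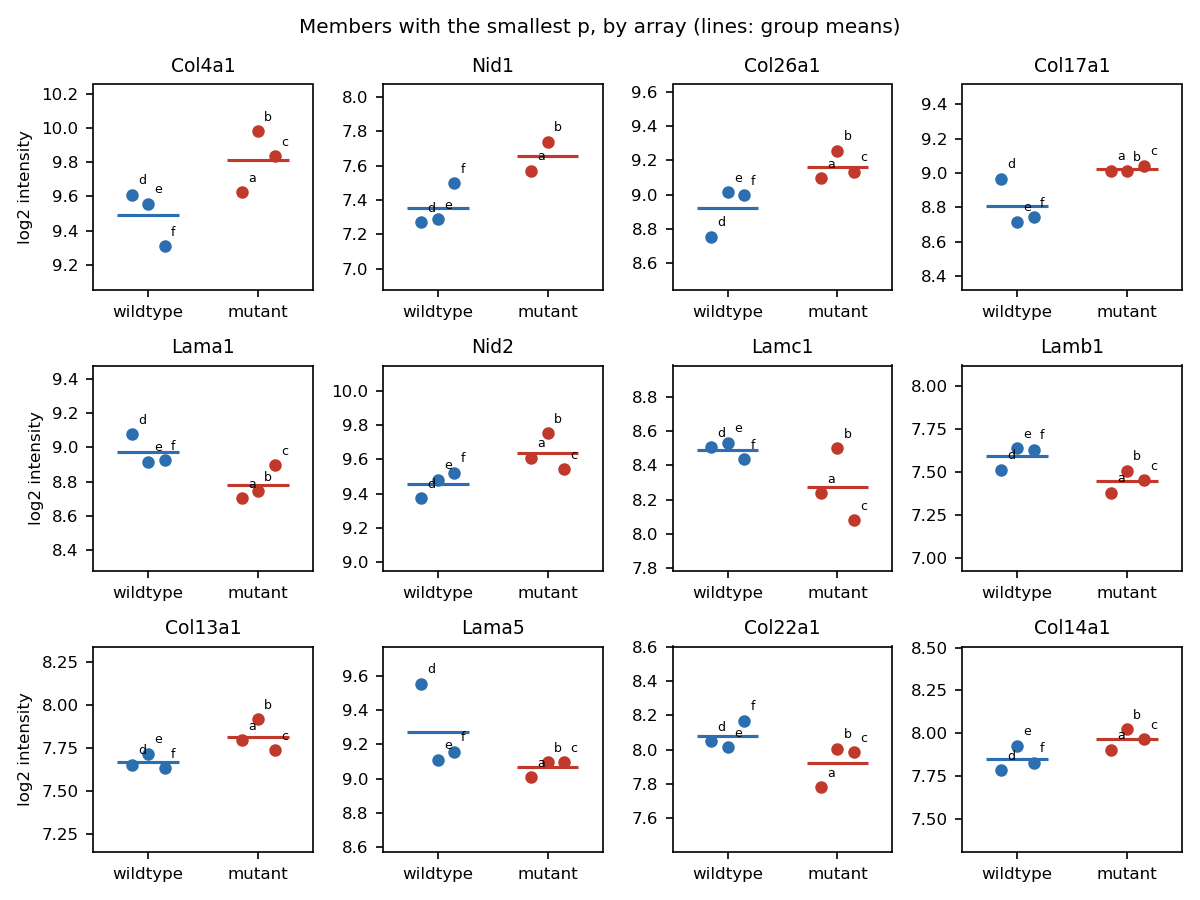
Log2 intensity (y axis, each panel spanning the same range of 1.2 log2 units) on each array for the 12 tested members with the smallest p among those named through the platform annotation, wildtype d to f in blue and mutant a to c in red, with lines at group means. Col4a1, Nid1, Nid2, Col26a1, Col17a1 and Col13a1 have every mutant point above every wildtype point, and Lama1, Lamb1, Lama5 and Col22a1 every mutant point below.

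Fn1, the fibronectin that lines somites and vessels and to which cells bind through integrins, measured 11.41, 11.69 and 11.42 in mutants and 11.77, 11.48 and 11.74 in wildtypes. Mutant b lay among the wildtypes and wildtype e among the mutants. The Fn1 difference was -0.16 (SE 0.11, adjusted p = 0.584 by limma).

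Fibrillar collagens had 10 genes on the array (Col1a1, Col1a2, Col2a1, Col5a1, Col5a2, Col5a3, Col11a1, Col11a2, Col24a1 and Col27a1), of which 9 were tested. By gene, 7 had a positive and 2 a negative difference, the median was 0.09, the range -0.02 to 0.30, and the smallest adjusted p was 0.604. The fibrillar median was 0.021 without mutant b and 0.046 without wildtype d, and 0.17 without mutant c. The groups overlapped for every tested fibrillar probe. Over arrays, the class median deviation was 0.08, 0.21 and -0.13 in mutants a, b and c and -0.10, -0.01 and -0.04 in wildtypes, so the mutants held both the highest and the lowest array.

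Col2a1, the main collagen of notochord sheath and cartilage, measured 7.77, 8.99 and 8.12 in mutants a, b and c and 7.97, 8.04 and 7.97 in wildtypes d, e and f. Mutant b stood above the rest, mutant c just above the wildtypes and mutant a below them. The difference was 0.30 (SE 0.26, 95% interval -0.28 to 0.89, adjusted p = 0.664 by limma), and -0.05 without mutant b. Mutant b was also highest in the summed intensity of 9 tested genes that mark sclerotome and cartilage precursors, at 7127, beside 5105 and 4951 in mutants a and c and 5173, 5731 and 5788 in wildtypes. Of that list's 10 probes, 5 had a positive and 5 a negative difference and 0 passed. The part of those cells in the Col2a1 value was not tested. Sox9, a factor that switches on cartilage genes, measured 7.64, 7.61 and 7.54 in mutants and 7.67, 7.96 and 7.88 in wildtypes, with a difference of -0.24 (SE 0.09, adjusted p = 0.356 by limma), so mutant b did not stand out there.

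The type I chains, which form the main fibres of skin and bone, did not separate the groups. Col1a1 had a difference of 0.05 (SE 0.11) and Col1a2 one of 0.09 (SE 0.14), and each changed sign when single arrays were left out. Col5a2, a chain of the type V collagen that starts type I fibrils, measured 9.99, 10.06 and 9.72 in mutants and 9.78, 9.86 and 9.71 in wildtypes. Mutants a and b lay above the wildtypes, mutant c among them, with a difference of 0.14 (SE 0.10, adjusted p = 0.604 by limma). Col5a1, its partner chain, has a tested probe (GE42730) at 9.44, 9.66 and 9.20 in mutants and 9.26, 9.36 and 9.28 in wildtypes, a difference of 0.13 (SE 0.12). Its second probe (GE107986), above background on 1 wildtype array, measured 6.54, 6.48 and 6.59 in mutants and 6.17, 6.37 and 6.56 in wildtypes. In both probes of Col5a1 the groups overlapped.

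Col11a1, a minor fibril chain of cartilage, measured 9.24, 9.25 and 9.07 in mutants and 8.82, 9.20 and 9.21 in wildtypes. Wildtype d was the low array there, and the difference was 0.11 (SE 0.12). Col27a1, a fibrillar collagen of developing cartilage, has 2 tested probes whose differences had opposite signs. The first (GE1407035) measured 7.65, 7.96 and 7.58 in mutants and 7.67, 7.47 and 7.61 in wildtypes, 0.15 (SE 0.11). The second (GE121608) measured 9.98, 10.18 and 9.68 in mutants and 10.09, 9.89 and 9.91 in wildtypes, -0.02 (SE 0.13). Mutant b was highest in both Col27a1 probes. The remaining fibrillar members, Col5a3 and Col24a1, had differences of -0.01 (SE 0.08) and 0.08 (SE 0.09).

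The notochord or cartilage class (Col2a1, Col9a1, Col9a3, Col10a1, Col11a1, Col11a2 and Col27a1) shares 4 genes with the fibrillar class and 2 with the FACIT class. Of 5 tested genes, 3 had a positive and 2 a negative difference, and the median of 0.11 became -0.08 without mutant b. Col9a1, a type IX chain that coats type II fibrils, had 2 usable spots per group in its tested probe (GE34871), 7.20 and 7.25 in mutants a and b and 6.75 and 7.43 in wildtypes d and f. The wildtype values enclosed the mutant ones, and the fit without the marked spots of mutant c and wildtype e gave 0.13 (SE 0.21). Its second probe (GE1432902) was above background on 0 arrays, at 6.03, 6.11 and 6.19 in mutants and 6.29, 6.31 and 6.16 in wildtypes. Col9a3, another type IX chain, had a difference of -0.06 (SE 0.09). Col10a1, the collagen of hypertrophic cartilage, and Col11a2 were above background on 0 arrays.

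Among notochord marker genes, Foxa2 passed the test as given above, a call that was lost in 8 of the 18 alternatives: a floor on subtracted intensity, a smaller offset, the deposited table, and any single array other than mutant a left out. T (brachyury) measured 10.93, 10.67 and 10.80 in mutants and 11.05, 10.86 and 10.83 in wildtypes, a difference of -0.11 (SE 0.10, adjusted p = 0.667 by limma). The notochord list had 4 tested genes with a median of -0.11 over 5 probes.

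FACIT collagens (Col9a1, Col9a3, Col12a1, Col14a1, Col16a1, Col19a1, Col20a1 and Col22a1) had 5 of 8 genes tested, 2 with a positive and 3 with a negative difference and a median of -0.02, which became 0.019 without mutant a and -0.084 without mutant b. Col22a1, a collagen of tissue junctions, measured 7.78, 8.01 and 7.99 in mutants and 8.05, 8.02 and 8.17 in wildtypes. The mutants lay below the wildtypes, mutant b by little, with a difference of -0.15 (SE 0.09, adjusted p = 0.516 by limma). Col14a1, which regulates fibril growth, measured 7.90, 8.02 and 7.97 in mutants and 7.78, 7.93 and 7.83 in wildtypes with its tested probe (GE33110), a difference of 0.12 (SE 0.08) with overlapping groups. Its second probe (GE108723) was above background on 0 arrays, at 6.01, 6.14 and 6.04 in mutants and 6.23, 6.06 and 6.22 in wildtypes.

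Col20a1 measured 6.70, 6.89 and 6.86 in mutants and 6.88, 6.81 and 6.81 in wildtypes, a difference of -0.02 (SE 0.08). Col19a1 has 2 untested probes. The first (GE125147) measured 5.99, 6.61 and 6.39 in mutants and 6.60, 6.03 and 6.44 in wildtypes, the second (GE34866) 6.002, 6.36 and 5.82 in mutants and 6.14, 6.14 and 6.12 in wildtypes. Neither Col20a1 nor Col19a1 had groups apart from each other.

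The remaining collagens held 15 genes, of which 8 were tested, 7 with a positive and 1 with a negative difference and a median of 0.12. Col26a1, a secreted collagen first described in reproductive tissue, measured 9.10, 9.26 and 9.14 in mutants and 8.76, 9.02 and 8.998 in wildtypes. All mutants lay above all wildtypes, and the difference was 0.24 (SE 0.09, 95% interval 0.02 to 0.46, adjusted p = 0.365 by limma). Col17a1, a transmembrane collagen that anchors epidermal cells, measured 9.02, 9.01 and 9.04 in mutants and 8.97, 8.72 and 8.74 in wildtypes. The mutants lay close together (SD 0.02) and above the wildtypes, with a difference of 0.21 (SE 0.09, adjusted p = 0.378 by limma). Col13a1, a transmembrane collagen of adhesion sites and synapses, measured 7.80, 7.92 and 7.74 in mutants and 7.66, 7.72 and 7.63 in wildtypes. The mutants again lay above, and the difference was 0.15 (SE 0.08, adjusted p = 0.481 by limma).

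Col23a1, a further transmembrane collagen, has 2 tested probes that differed in sign. The first (GE39751) measured 8.63, 9.12 and 8.84 in mutants and 8.84, 9.01 and 8.99 in wildtypes, -0.09 (SE 0.12). The second (GE136750) measured 7.78, 8.44 and 8.36 in mutants and 7.97, 8.26 and 8.07 in wildtypes, 0.10 (SE 0.17). Mutant a was lowest and mutant b highest in both. Col25a1, a transmembrane collagen of neurons, was not tested: 1 probe (GE115932) was above background on 2 wildtype arrays, at 6.25, 6.47 and 6.14 in mutants and 6.57, 6.54 and 6.30 in wildtypes, and the other (GE109527) on 0, at 6.04, 6.13 and 6.09 in mutants and 6.01, 6.03 and 6.28 in wildtypes.

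Type VI collagens form beaded filaments around cells. Col6a1 and Col6a2, chains found together in the same trimer, had differences of 0.14 (SE 0.14) and 0.09 (SE 0.09). The tested Col6a2 probe (GE33101) measured 8.35, 8.09 and 8.18 in mutants and 8.03, 8.24 and 8.09 in wildtypes, and the other (GE1391596), above background on 0 arrays, 6.15, 6.20 and 6.28 in mutants and 6.10, 6.02 and 6.12 in wildtypes. The tested probe overlapped between groups, and no level was read from the other. Col6a4 again had probes of opposite sign. The first (GE103020) measured 7.64, 7.18 and 7.51 in mutants and 7.52, 7.57 and 7.62 in wildtypes, -0.13 (SE 0.12). The second (GE131770) measured 7.68, 7.69 and 7.90 in mutants and 7.57, 7.82 and 7.57 in wildtypes, 0.10 (SE 0.10). Mutant b was lowest in the first Col6a4 probe and not in the second.

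Col6a6 had a tested probe (GE1451136) at 7.07, 7.22 and 7.37 in mutants and 7.13, 7.25 and 7.27 in wildtypes, a difference of 0.01 (SE 0.09), and an untested one (GE1534446) at 5.97, 6.13 and 6.10 in mutants and 6.19, 6.04 and 6.06 in wildtypes. Col6a5 was above background on 0 arrays with both probes, at 6.36, 6.16 and 6.05 in mutants and 6.29, 6.12 and 6.07 in wildtypes for GE1562953. For GE113499 the values were 6.46, 6.21 and 6.13 in mutants and 6.26, 6.27 and 6.29 in wildtypes. Col6a3, Col7a1 (the anchoring fibril collagen of skin), Col8a1 and Col8a2 were likewise above background on 0 arrays.

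In all, 27 member probes were left untested, 19 above background on 0 arrays and 8 on 1 or 2 arrays, and 16 genes had no tested probe. Fitted without the filter, these 27 had differences of -0.20 to 0.24 and a smallest adjusted p of 0.429 by limma. Their values of 5.82 to 6.69 lay near the background, so that a difference could not be detected at this signal. Of the 15 genes with several probes, 4 had several tested ones (Lama1, Col27a1, Col6a4 and Col23a1), and in each the probes had opposite signs, though the second Lama1 probe lay at 0.00. No probe named as Col3a1, Col9a2, Col21a1 or Col28a1 was analysed here.

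The highest and lowest member values were unevenly spread over the arrays. Of the 41 tested member probes with values on all 6 arrays, mutant b had the highest value at 19 (46.3%), beside 21.1% of all 20784 such probes. Mutant a had the lowest value at 14 (34.1%), beside 16.4% of all. The members' median deviation from their own probe means was 0.12 in mutant b, and between -0.06 and 0.01 on the other 5 arrays. Without mutant b, 42 member probes were tested (Nid1 and Col9a1 were left with 1 mutant value), with 21 positive and 21 negative differences, a median of -0.01 and 2 unadjusted p-values below 0.05. Of all probes tested without mutant b, 53.1% had a positive difference and 10.6% an unadjusted p below 0.05. The groups then did not overlap for 5 probes with mutants above and 9 with mutants below, beside 16.6% and 13.0% of all probes.

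**Figure D3:**
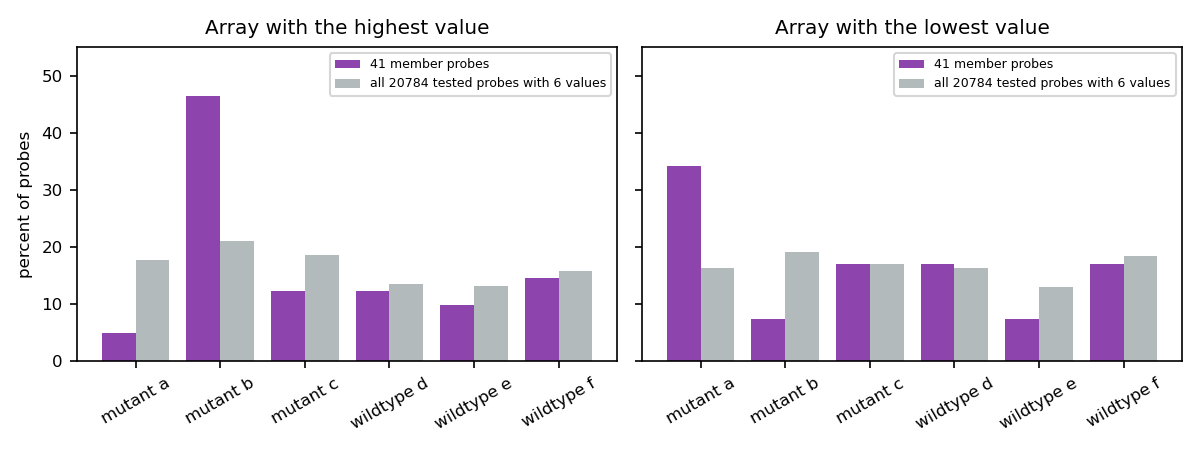
Share of probes (percent, y axis) for which each array (x axis) held the highest value (left panel) or the lowest value (right panel), for 41 member probes in purple and all 20784 tested probes with 6 values in grey. Mutant b was highest at 46.3% of the member probes, beside 21.1% of all, and mutant a lowest at 34.1%, beside 16.4%.

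**Figure D4:**
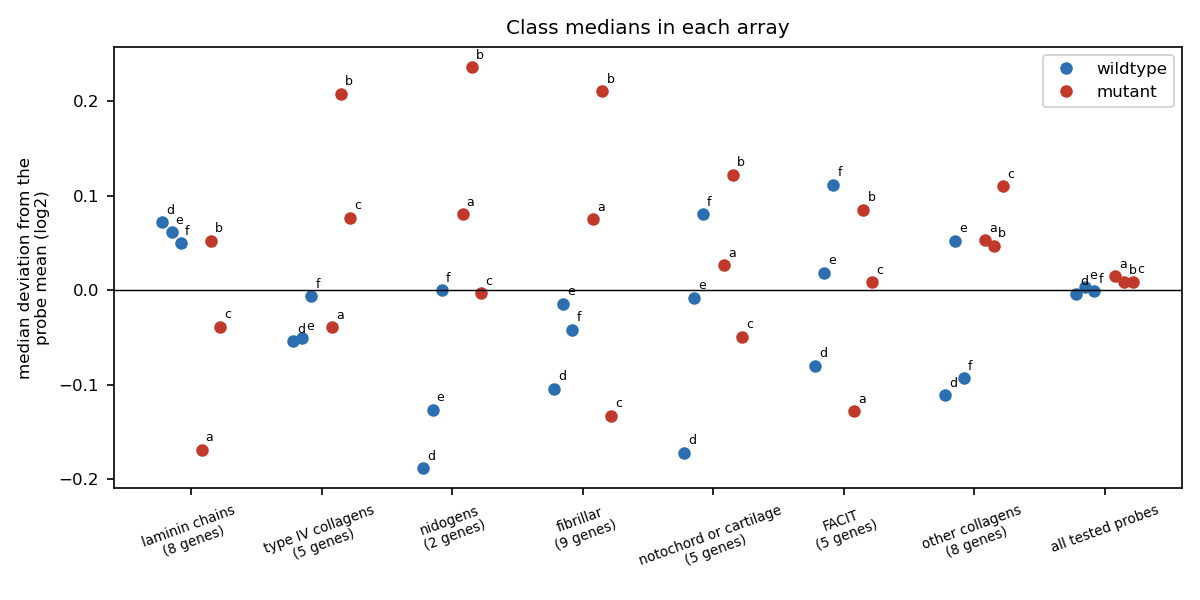
Median deviation of each class's tested probes from their own means (log2, y axis) on each array, wildtype d to f in blue and mutant a to c in red. Mutant b is the top point of type IV collagens (0.21), nidogens (0.24), fibrillar collagens (0.21) and the notochord or cartilage class (0.12), mutant a is the bottom point of laminin chains (-0.17), and all tested probes together lie between 0.00 and 0.02.

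Genes that make, crosslink or bind the matrix were read from lists of the pathway. Of the collagen synthesis and crosslinking list, 25 genes were tested with 30 probes, 0 passed an adjusted p of 0.05, 16 differences were positive and 14 negative, and the median was 0.03. Mia3, which helps load collagen into transport vesicles, measured 7.09, 6.83 and 6.99 in mutants and 7.39, 7.36 and 7.53 in wildtypes with the probe of smallest p, a difference of -0.46 (SE 0.09, adjusted p = 0.168 by limma). All mutants lay below all wildtypes, and its other 2 probes gave -0.30 and -0.09 (adjusted p 0.276 and 0.687 by limma). P3h2, a prolyl hydroxylase of collagen, had a difference of -0.33 (SE 0.08, adjusted p = 0.239 by limma), and Adamts14, a procollagen peptidase, one of -0.25 (SE 0.07, adjusted p = 0.276 by limma).

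Of the matrix receptor list, 18 genes were tested with 21 probes, 0 passed, 11 differences were positive and 10 negative, and the median was 0.05. The smallest p-values belonged to the syndecan Sdc4, at -0.38 (SE 0.08, adjusted p = 0.189 by limma), the collagen receptor kinase Ddr2, at 0.33 (SE 0.10, adjusted p = 0.276 by limma), and the syndecan Sdc1, at -0.28 (SE 0.09, adjusted p = 0.311 by limma). Of the matrix partner list, 23 genes were tested with 25 probes, 0 passed, 14 differences were positive and 11 negative, and the median was 0.01. Hapln1, which links hyaluronan to proteoglycans, measured 8.08, 9.01 and 9.31 in mutants and 9.75, 10.18 and 9.47 in wildtypes, a difference of -1.003 (SE 0.30, adjusted p = 0.275 by limma). Its mutants all lay below its wildtypes with that probe, whereas its second probe gave 0.18 (SE 0.11). Acan, the cartilage proteoglycan aggrecan, had a difference of -0.27 (SE 0.07, adjusted p = 0.252 by limma), with only 1 mutant array above background against 3 wildtype arrays. Efemp2, a fibulin of elastic fibres, had a difference of 0.23 (SE 0.08, adjusted p = 0.331 by limma).

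Marker lists of cells that make these matrix genes were read beside them. Of the endothelial list, 4 probes had a positive and 5 a negative difference, with Cdh5 and Flt1 not tested, and the summed intensity was 6580 to 6904 in mutants and 6499 to 6956 in wildtypes. Of the mesenchyme list, 7 probes were positive and 4 negative, with sums of 9050 to 9609 in mutants and 8443 to 8866 in wildtypes. Those sums did not overlap, but the mean log2 level of the same genes did, at 9.39 to 9.46 in mutants and 9.37 to 9.46 in wildtypes. The yolk sac and parietal endoderm list, cells rich in type IV collagen and laminin, had 4 positive and 1 negative probe, with Amn, Apoa4, Apob and Cubn not tested. The surface ectoderm list had 3 positive and 5 negative, and the somite and tailbud list 2 and 5. The erythroid list had 11 positive of 11 probes, though Hba-x and Hbb-bh1 (GE117914) lay at 0.00. Its median deviation was 0.14, 0.21 and -0.01 in mutants a, b and c. In wildtypes d, e and f it was 0.07, -0.06 and -0.48, so wildtype f stood lowest. Its sums were 95386 and 88353 in mutants b and c and 73852 to 96297 in wildtypes. Mutant a has no sum, since its spot of the globin Hbb-y was dropped. In these lists 0 probes passed an adjusted p of 0.05. Of the neural tube list, 3 probes were positive and 4 negative, and 1, Pax6, passed. The part of any of these cells in the member values was not tested.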

How the data were processed

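Per the file headers, the authors measured intensity (spot mean and local background median) in CodeLink Expression Analysis, and the deposited series table equalled the scanner's median-scaled intensity. The symbol rule for members used no measured value, but the members and all lists were chosen with earlier results of these data known. Probes were named through the platform annotation, updated with the RefSeq table of GRCm38.p6, which also gave the promoter windows. Background was corrected with normexp (offset 50), control spots were left out, 339 to 508 marked spots on each array were dropped, and the log2 scale was quantile-normalized. Probes that the scanner software marked good or saturated (here, above background) on 3 or more of 6 arrays, with 2 or more usable values in each group, were tested with limma 3.58.1 in R 4.3.3 (lmFit and eBayes, two-sided, Benjamini-Hochberg over 21688 probes, threshold 0.05); the model was tested on simulated data. An exact permutation test of 3 against 3 cannot go below a p of 0.1. Values on every array are given for the 12 members with the smallest p, the 3 brightest of each class and all probes of members with several. From each pathway list the differences of the 3 genes with the smallest p are given, with values on every array for Mia3 and Hapln1. Class counts and medians take each gene's brightest tested probe. A result of 1 member is not reported here, though it stays in the counts and medians. Alternatives changed background correction, normalization, filter, model and threshold, and left out each array.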

Additional observations from a re-analysis of the deposited data

How the results depend on the processing

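No paired analysis was possible because the mutant letters (a to c) and wildtype letters (d to f) are not shared. No member passed under any of the 18 alternatives (background correction, normalization, filter, model, threshold, each array left out), and the smallest adjusted p of a member was 0.209 by limma, for Col4a1 without mutant a. Over all probes, the 26 calls became 16 with median centring, 13 with a floor on subtracted intensity, 15 from the deposited table, 16 (7 higher, 9 lower) with only probes above background on every array, 12 with a 2-fold minimum, and 11 to 37 with an array left out (11 without mutant b, wildtype d or wildtype f, 37 without mutant a). Of 162 class medians under alternatives, 158 moved by less than the spread between replicates. That spread was larger than the size of the median itself in the fibrillar class (0.13 against 0.09) and the FACIT class (0.10 against -0.02). There a median could vanish or change sign and still count among the 158. With an array left out, the fibrillar median ran from 0.021 to 0.17, the FACIT median from -0.084 to 0.019, the basement membrane median from -0.11 to -0.055 (without wildtype f) and that of the remaining collagens from 0.066 (without wildtype f) to 0.17. The notochord or cartilage median ran from -0.079 (without mutant b) to 0.13 with an array left out, that of type IV collagens from 0.061 to 0.22 (without mutant a) and that of nidogens from 0.12 (without mutant b, Nid2 alone) to 0.29, and the remaining collagens came to 0.0061 without the filter. The sign held in every setting for 30 of 44 member probes. With an array left out, the other 14 ran from -0.047 to 0.56 for Col2a1, -0.23 to 0.0029 for Col6a4 (GE103020), -0.017 to 0.18 for Col11a1, -0.059 to 0.32 for Col4a2, -0.21 to 0.029 for Col23a1 (GE39751), -0.16 to 0.022 for Hspg2, -0.046 to 0.24 for Col1a2, -0.027 to 0.30 for Col23a1 (GE136750), -0.046 to 0.14 for Col1a1, -0.057 to 0.041 for Col20a1, -0.044 to 0.038 for Col5a3, -0.13 to 0.12 for Col27a1 (GE121608), -0.070 to 0.080 for Col6a6 and -0.044 to 0.049 for Lama1 (GE1527551). Besides these, Col27a1 (GE121608) gave 0.038 with median centring and 0.00028 from the deposited table, Col6a6 -0.0012 with median centring, -0.014 with cyclic loess and -0.0053 from the deposited table, and Lama1 (GE1527551) -0.013 with cyclic loess, -0.0081 from the deposited table and -0.0072 with array weights. The number of arrays and signals near background limit the precision, and 27 member probes, among them every probe of 16 genes, were too dim to test.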
